A study of Mus musculus with 8 samples.

Results

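The genes described here are the Wnt ligands, their receptors and the secreted proteins that modulate them, measured by single nucleus RNA-seq in the mouse iris. They were chosen by gene family, as the Wnt ligands (14 genes), the frizzled receptors (10), the co-receptors and other receptors Lrp5, Lrp6, Ror1, Ror2 and Ryk (5), the R-spondins with their LGR receptors (7), the secreted inhibitors (10) and the feedback targets Axin2 and Notum (2). This gave 48 genes of the 22873 in the count tables, and they received 286650 of 109565284 UMIs (unique molecular identifiers, each standing for 1 captured RNA molecule), or 0.262%. The study profiled irises with a variable rim of ciliary body from untreated mice (3 libraries), mice with constricted pupils (3 libraries) and mice with dilated pupils (2 libraries). All were wild type female albino mice, 6 to 8 weeks old, and each library pooled 5 or 6 irises. Pupils were dilated with phenylephrine (5%) and cyclopentolate (1%) in the dark or constricted with pilocarpine (5%) in the light, and irises were collected 6.5 hours after the first drops. Drug and lighting thus moved together and cannot be told apart.

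Wnt proteins are secreted, lipid-modified ligands that bind frizzled receptors on nearby cells. With the co-receptors LRP5 or LRP6 they stabilize beta-catenin and turn on genes such as Axin2 and Notum, whose products dampen the signal, whereas ROR and RYK receptors mostly serve beta-catenin-independent responses such as cell polarity. R-spondins bind LGR receptors and keep frizzled receptors on the cell surface, while WIF1, the DKK family and the SFRP family hold ligands or co-receptors back in the extracellular space (DKK3 differs from its relatives and has no agreed role). In the eye, Wnt signals are known for patterning the margin of the optic cup, from which the iris and ciliary body epithelia arise.

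Levels are given as CPM (counts per 1000000), the UMIs of a gene relative to all UMIs of the same cell type and library, after summing the nuclei that the authors assigned to each of 10 cell types. The 8 libraries held 1274 to 7321 nuclei and 5189437 to 25136427 UMIs, 34357 nuclei in all, with a median of 2775 to 4698 UMIs per nucleus. Of 34152 distinct cell barcodes, 195 stood in more than 1 library, and dilated 1 and untreated 1 shared 63 of them against at most 18 for any other pair. Counts of called members with those nuclei left out are given below. The authors' names fitted the marker lists in part: Tfap2b and Pdgfra were highest in stroma 2, Sox10 and Dct in stroma 1, Ptprc and Mrc1 in leukocytes, Cldn5 and Erg in endothelial cells, Nos1 and Adra1a in dilator muscle, Chrm3 and Ttn in sphincter 1. Myh11, also listed for dilator muscle, averaged 1931 CPM there against 2940 CPM in sphincter 1 and 2801 CPM in sphincter 2. None of the 3 markers listed for sphincter 2 was highest there, since Chrm3 and Myh11 peaked in sphincter 1 and Adra1a in dilator muscle, and of those for iris PE, Otx1 peaked in CBE and Pax6 in CB. Of those for CBE, Zic2 was highest there, but Zic1 peaked in iris PE (764 against 705 CPM in CBE) and Pax6 in CB (1998 against 1214 CPM). In the type named CB (ciliary body), the smooth muscle genes Myh11 and Acta2 averaged 50.1 and 52.1 CPM against 2940 and 1310 CPM in sphincter 1. CBE is the ciliary body epithelium and iris PE the iris pigment epithelium.

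The sequences upstream of Wif1, Wnt16, Fzd4 and Dkk2 are shown here because these are 4 of the 5 members whose calls, given below, held under every alternative setting. They come from RefSeq (GRCm38.p6), which held an entry for 31 of the 48 members. Each window starts 250 bases before the RefSeq start and ends before the first transcribed base in RefSeq or GENCODE. Both strands of the 250 bases were searched for a TATA box (TATAAA), a TCF/LEF core (CTTTGA), an EGR1 motif (GCGTGGGCG), AP-1 (TGACTCA or TGAGTCA) and a cyclic AMP response element (TGACGTCA), and any match is in capitals.
Wif1, chr10:121033754-121033959, plus strand: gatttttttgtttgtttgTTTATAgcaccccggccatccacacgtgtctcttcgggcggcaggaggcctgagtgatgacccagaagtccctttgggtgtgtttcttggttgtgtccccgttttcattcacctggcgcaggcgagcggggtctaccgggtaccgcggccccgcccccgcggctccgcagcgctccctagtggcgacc
Wnt16, chr6:22287977-22288226, plus strand: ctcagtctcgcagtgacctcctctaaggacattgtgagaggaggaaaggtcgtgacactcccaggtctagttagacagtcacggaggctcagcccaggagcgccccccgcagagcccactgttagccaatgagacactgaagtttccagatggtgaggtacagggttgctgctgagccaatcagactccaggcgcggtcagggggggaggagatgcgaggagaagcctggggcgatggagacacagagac
Fzd4, chr7:89404116-89404354, plus strand: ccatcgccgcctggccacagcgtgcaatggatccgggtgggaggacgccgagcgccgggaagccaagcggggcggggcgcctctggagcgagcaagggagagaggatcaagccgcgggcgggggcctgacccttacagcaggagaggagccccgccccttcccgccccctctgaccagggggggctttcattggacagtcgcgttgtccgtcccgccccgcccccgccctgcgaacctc
Dkk2, chr3:132085042-132085291, plus strand: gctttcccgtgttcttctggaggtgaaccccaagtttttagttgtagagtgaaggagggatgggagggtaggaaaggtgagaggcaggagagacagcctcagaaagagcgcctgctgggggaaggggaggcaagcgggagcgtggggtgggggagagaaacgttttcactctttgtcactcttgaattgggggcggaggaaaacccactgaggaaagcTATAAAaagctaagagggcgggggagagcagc
The Dkk2 window held a TATA box on the plus strand 32 to 27 bases before the start, and the Wif1 window held one on the minus strand, 232 to 227 bases before the start. The Wnt16 and Fzd4 windows held none of the 5 motifs. Over 32536 distinct windows of 250 bases, 12.3% held a TATA box, 13.9% a TCF/LEF core, 4.45% AP-1, 1.56% a cyclic AMP response element and 0.541% the EGR1 motif, so that a single match of the first kind is common. The Fzd4 window was the richest in G and C (72.8%), and that of Dkk2 the poorest (55.6%).

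In untreated irises the members were spread very unequally over the cell types. Stroma 2 had the highest mean level of 16 of the 37 members with at least 30 UMIs in the untreated libraries, followed by CBE with 5 and dilator muscle with 4. Of the other 11 members, each with fewer than 30 UMIs, no pattern is read. In 12 members the highest cell type stood at least 2-fold above the next, and 9 of these 12 were highest in stroma 2. These levels are described without a test, and without the share of all genes that peak in stroma 2. The counts are therefore not read as particular to the members.

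**Figure D1:**
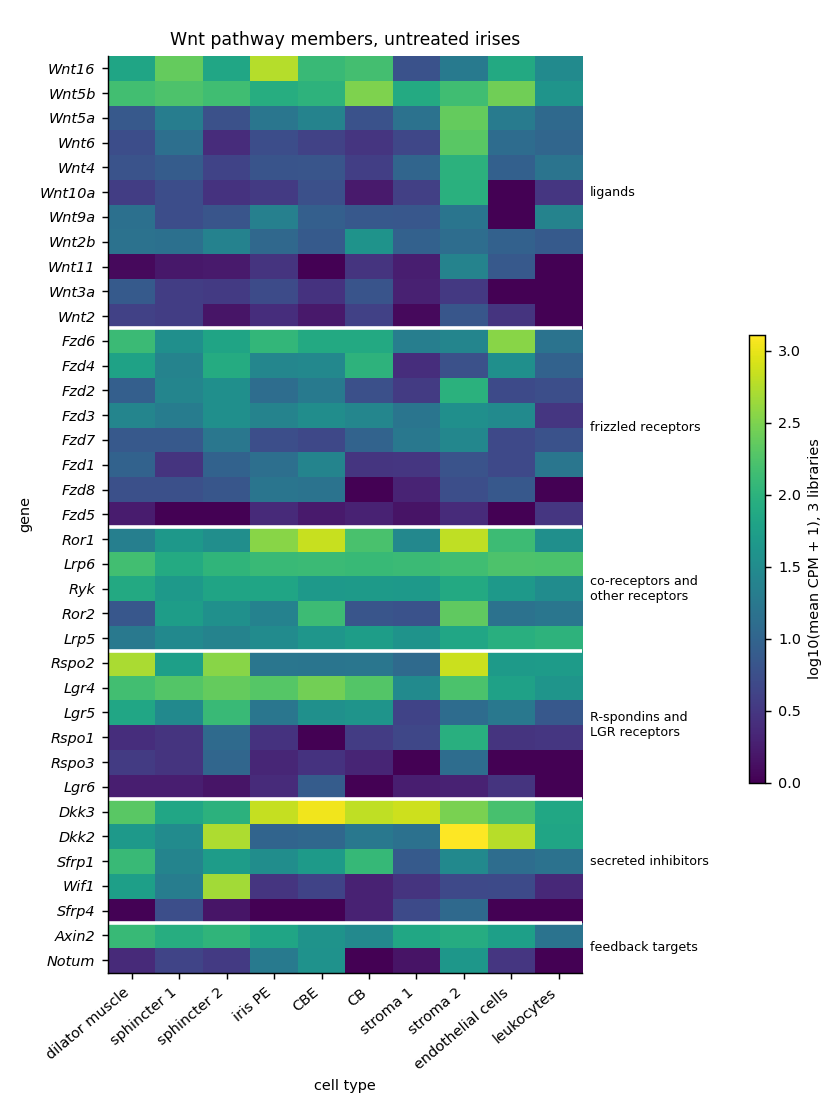
Mean level of the 37 members with at least 30 UMIs in untreated irises (rows, ordered by role) in the 10 cell types (columns), as log10 of the mean CPM over 3 libraries plus 1. Most ligands are brightest in the stroma 2 column, whereas Wnt16 is brightest in iris PE and Wif1 in sphincter 2.

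Among the ligands, Wnt16 had the most UMIs (18701 over all libraries). Its level in iris PE was 449, 625 and 647 CPM in the 3 untreated libraries, against 199, 271 and 231 CPM in sphincter 1, the next type. The ranges of the pair did not overlap, and the mean in iris PE was 2.46-fold higher. A Wnt16 UMI was found in 74.8% of untreated iris PE nuclei (42.5% after thinning each nucleus to 1000 UMIs), in 19.6% of dilator nuclei and in 1.63% of stroma 1 nuclei, the type with the lowest level (6.70% and 0.781% thinned). Median depth in the untreated libraries was 3015 to 3581 UMIs per iris PE nucleus and 2624 to 3113 per stroma 1 nucleus. Per kb of gene, Wnt16 was also the leading ligand in iris PE (55.7 CPM per kb) and in every other type except the stromas, where Wnt6 led in stroma 2 (15.1 CPM per kb) and Wnt5b in stroma 1 (0.701 CPM per kb). This order depends on gene length, which is 10.3 kb for Wnt16 and 112 kb for Wnt5b. In CPM, Wnt5b stood above Wnt16 in dilator muscle, sphincter 2, CB, endothelial cells and leukocytes, and Wnt5a above Wnt6 in stroma 2.

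A second group of ligands, Wnt4, Wnt5a, Wnt6, Wnt10a and Wnt11, had their highest level in stroma 2. Wnt5a, a ligand best known for beta-catenin-independent signalling, stood at 195, 239 and 270 CPM in the untreated stroma 2 libraries and averaged 23.3 ± 7.94 (SD, n = 3) in CBE, the next type. Wnt6 stood at 201, 196 and 212 CPM in stroma 2, a mean 16.1-fold above sphincter 1 (12.6 ± 7.91), a log2 ratio of 4.01 that became 4.65 without untreated 1. Wnt10a, its neighbour on chromosome 1, stood at 103, 67.3 and 105 CPM and was 19.4-fold above CBE (4.73 ± 5.26), a log2 ratio of 4.28 that became 3.60 without untreated 1 and 5.49 without untreated 3. The Wnt6 gene ends at position 74785322 and Wnt10a starts at 74791516 (GRCm38), so both stroma 2 genes lie within a few kb. Wnt4 varied more, with 59.2, 105 and 133 CPM, and the next type, leukocytes (14.6 ± 12.9), rested on 9 UMIs. Wnt11 stood at 30.2, 21.9 and 18.1 CPM against 6.46 CPM in endothelial cells, which came from 1 UMI. A Wnt5a UMI was found in 36.4% of untreated stroma 2 nuclei (19.5% thinned) and in 2.32% of dilator nuclei (0.647% thinned), and a Wnt6 UMI in 35.1% (17.05% thinned) against 1.61% of iris PE nuclei (0.435% thinned). Wnt5b was the broad ligand, with untreated means from 39.5 CPM in leukocytes to 318 ± 118 CPM in CB and 266 ± 123 CPM in endothelial cells, a neighbouring pair whose ranges overlapped. On the opposite strand it shares 2963 bases with Fbxl14 (1213 UMIs).

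The frizzled receptors differed in the cell type where each was highest. Fzd6, the receptor with the most UMIs (11069), stood at 349, 380 and 334 CPM in untreated endothelial cells and was 2.72-fold above dilator muscle (130 ± 28.1). Fzd2 stood at 95.5, 97.6 and 92.8 CPM in stroma 2, 2.77-fold above sphincter 2 (34.4 ± 2.89). Fzd4, the receptor for norrin in retinal vessels, was highest in CB (101, 107 and 94.5 CPM), with sphincter 2 (79.5 ± 15.2) and dilator muscle (60.6 ± 6.47) after it. In endothelial cells Fzd4 rested on 13 UMIs (34.6 ± 14.0 CPM). Per kb, Fzd2 led in stroma 2 (26.0 CPM per kb), Fzd6 in endothelial cells (11.0), Fzd4 in dilator muscle (6.91) and CB (11.5), and Fzd7 in stroma 1 (3.66). In CPM, Fzd6, the longer gene, stood above Fzd4 in dilator muscle and above Fzd7 in stroma 1. Among the other receptors, Ror1 had the most UMIs (27843) and was highest in CBE (697 ± 78.8 CPM) and stroma 2 (645 ± 29.6), a pair whose ranges overlapped. Ror2 was highest in stroma 2 (222 ± 42.2 CPM). Lrp6 was found at similar levels across types, with means from 79.3 CPM in sphincter 1 to 172 CPM in endothelial cells.

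The R-spondins were stromal and muscular. Rspo2 had the most UMIs of this role (34068) and stood at 560, 762 and 846 CPM in untreated stroma 2, 514, 490 and 522 CPM in dilator muscle and 302, 354 and 421 CPM in sphincter 2, with no overlap between neighbours in this order. It was at or below 15.8 CPM on average in iris PE, CBE, CB and stroma 1. Rspo1 stood at 74.9, 91.3 and 106 CPM in stroma 2, 8.28-fold above sphincter 2, and 580 of its bases overlap an antisense gene (771 UMIs). Lgr4, the broad R-spondin receptor, ranged from 30.0 CPM in stroma 1 to 277 ± 47.5 in CBE. Lgr5, a stem cell marker in other epithelia, was highest in sphincter 2 (91.6, 123 and 162 CPM) and next in dilator muscle (68.4 ± 5.09).

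The inhibitors fell into stromal, epithelial and muscular members. Dkk2 stood at 1164, 1275 and 1382 CPM in untreated stroma 2 and was 2.17-fold above endothelial cells (588 ± 281), with sphincter 2 close behind (534 ± 257) and no clear order between the last 2. In endothelial cells the 3 libraries stood at 911, 449 and 403 CPM. Dkk3, the inhibitor with the most UMIs (45932), was high in CBE (1085 ± 108 CPM), stroma 1 (745 ± 77.9), iris PE (682 ± 52.7) and CB (648 ± 302). Wif1, which binds Wnt ligands directly, was highest in sphincter 2, where its level was 541, 325 and 559 CPM against 53.0, 60.2 and 52.8 CPM in dilator muscle, 8.58-fold lower, and from 0.963 to 20.0 CPM in the other types. Sfrp1 was highest in dilator muscle (125 ± 20.2 CPM) and CB (118 ± 43.9), whose ranges overlapped. Sfrp4 was highest in stroma 2 at a low level (12.1, 12.8 and 6.79 CPM), 2.30-fold above sphincter 1. Of the feedback targets, Axin2, a common readout of beta-catenin signalling, was found in every type and was highest in dilator muscle (124 ± 8.50 CPM) and sphincter 2 (105 ± 17.2). Notum, which removes the lipid from Wnt ligands, was highest in stroma 2 (42.5 ± 20.2 CPM), CBE (36.9 ± 11.5) and iris PE (18.3 ± 6.68), with means of at most 3.33 CPM elsewhere. It overlaps 2 antisense genes.

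The first comparison asked which members differed between dilated and untreated irises. In each cell type the UMI sums of the 8 libraries entered 1 edgeR fit, tested by quasi-likelihood. A gene was called when its absolute log2 fold change was above 0.6 and its p, adjusted by Benjamini-Hochberg over all genes tested in that type, was under 0.05. With dilation 9 members were called, all in muscle or iris PE: in dilator muscle Wif1 and Fzd7 rose and Wnt16, Wnt5b, Fzd4 and Lrp6 fell, in iris PE Fzd1 and Rspo3 rose, and in sphincter 2 Dkk2 fell. In dilator muscle these were 6 of 33 members tested, against 13.3% of all genes tested (2 higher against 7.2% and 4 lower against 6.14%). In iris PE they were 2 of 31, both higher (0.595% of all genes were called, 0.453% as higher), and in sphincter 2, 1 of 18, which was lower (2.87% of all genes, 1.4% as lower). Over all types 36 members could be tested in at least 1 type, and 12, with 10 to 147 UMIs each, passed the low-count filter in none. Within the library number series that held both groups (2 to 4, and 15 to 18), the log2 ratio of dilated to untreated levels, after TMM scaling, was 2.33 and 2.42 for Wif1 in dilator muscle and -2.88 and -1.95 for Dkk2 in sphincter 2. Libraries of the same series deviated together (correlations of 0.13 to 0.45 over 24 pairs, against -0.45 to 0.087 over 39 pairs of different series). Deviations were taken from each group mean, so the 2 dilated libraries mirror each other and the pairs are not independent. With a block for the series there were 18 calls of members, counted over cell types, with Wnt5b and Fzd1 each called in more than 1 type. All 9 calls were included, and 5335 rather than 2840 calls were made over all genes. A member described below as not called is so in the main fit, which had no block and used a low-count filter. The count stayed at 9 without the nuclei with shared barcodes, and at 9 without untreated 1.

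**Figure D2:**
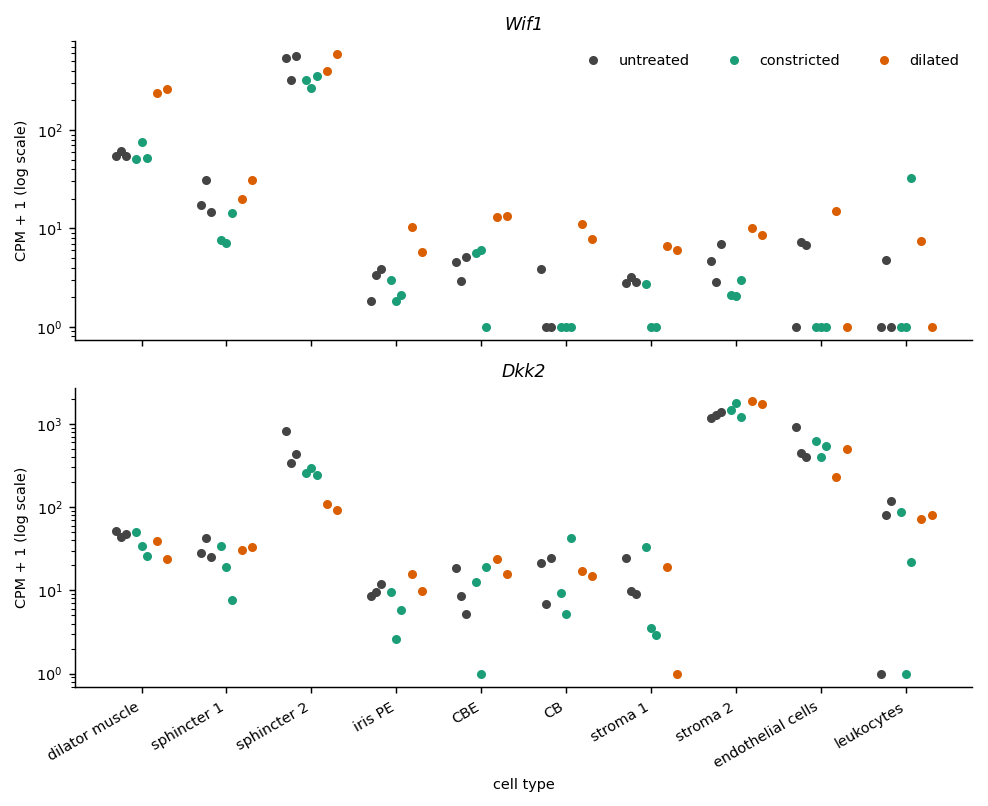
Levels of Wif1 and Dkk2 (CPM plus 1, log scale) in every library, by cell type and treatment, with 1 point per library. The dilated points (orange) for Wif1 stand above the others in dilator muscle, where they reach 234 and 257 CPM, and those for Dkk2 stand below the others in sphincter 2, at 107 and 92.0 CPM.

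In dilator muscle the inhibitor Wif1 showed the largest change. Its level was 53.0, 60.2 and 52.8 CPM in the untreated, 49.4, 74.0 and 50.9 CPM in the constricted and 234 and 257 CPM in the dilated libraries. Both dilated libraries stood above all 6 others. The log2 fold change was 2.33 (SE 0.19, edgeR quasi-likelihood test, adjusted p = 1.87e-05), a 5.03-fold rise. A Wif1 UMI was found in 13.4% of untreated and 39.1% of dilated dilator nuclei, and after thinning to 1000 UMIs in 4.23% and 17.3%. In stroma 2, where Wif1 averaged 3.82 CPM, the shares were 0.888% and 2.24% (0.377% and 0.746% thinned). The median depth of dilator nuclei was 3345 to 3926 UMIs in the untreated and 3660 to 3800 in the dilated libraries.

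Wif1 was also higher, at low levels, in dilated libraries of other types. In iris PE it stood at 0.836, 2.39 and 2.84 CPM in the untreated and 9.36 and 4.79 CPM in the dilated libraries (log2 fold change 1.64, SE 0.46, adjusted p = 0.17, not called). The dilation effect on Wif1 was 0.57 larger on the log2 scale in dilator muscle than in iris PE (SE 0.39, adjusted p = 0.41) and 1.12 larger than in stroma 2 (SE 0.42, adjusted p = 0.13), so that no difference between these types was shown. In sphincter 2, its main site, Wif1 stood at 541, 325 and 559 CPM in untreated and 400.1 and 586 CPM in dilated libraries, which overlapped. The muscarinic receptor Chrm3, which averaged 3958 CPM in untreated sphincter 1 and 665 CPM in sphincter 2, stood at 18.0 to 25.3 CPM in untreated and 25.5 and 17.8 CPM in dilated dilator nuclei. Over the 3 sphincter 2 markers (Chrm3, Adra1a and Myh11) the summed level in dilator nuclei was lower in dilated libraries (1506 to 1510 CPM) than in untreated ones (2212 to 2588 CPM). Myh11 alone stood at 1681 to 2090 CPM in untreated and 1140 and 1246 CPM in dilated dilator nuclei. Myh11 and Adra1a are also dilator muscle markers and made up nearly all of the sum, so it cannot separate sphincter 2 from dilator muscle. The part of these markers in the Wif1 rise was not tested.

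Of the ligands tested in dilator muscle, Wnt16 and Wnt5b fell. Wnt16 stood at 58.0, 71.8 and 66.6 CPM in untreated, 54.0, 40.3 and 49.5 CPM in constricted and 30.1 and 23.4 CPM in dilated libraries, and the dilated values lay below all others (log2 fold change -1.12, SE 0.18, edgeR adjusted p = 0.0015). In iris PE, its main site, Wnt16 stood at 414 and 353 CPM in the dilated libraries, below the lowest untreated value of 449 CPM (log2 fold change -0.55, SE 0.20, adjusted p = 0.38, not called). The fall was larger in dilator muscle than in iris PE, by 0.57 on the log2 scale (SE 0.13, adjusted p = 0.0036). Wnt5b stood at 174, 130 and 129 CPM in untreated, 170, 116 and 72.0 CPM in constricted and 54.6 and 27.1 CPM in dilated dilator libraries, again with the dilated values lowest (log2 fold change -1.62, SE 0.31, adjusted p = 0.0043).

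Of the receptors in dilator muscle, Fzd4 stood at 66.1, 53.5 and 62.3 CPM in untreated, 57.1, 63.8 and 77.9 CPM in constricted and 30.9 and 19.6 CPM in dilated libraries. Both dilated libraries were below all 6 others (log2 fold change -1.06, SE 0.20, edgeR adjusted p = 0.0039). The share of dilator nuclei with a Fzd4 UMI was 16.6% untreated and 9.81% dilated (5.03% and 2.997% thinned), against 0.542% in untreated stroma 1 nuclei, where the receptor averaged 1.55 CPM. In sphincter 2, Fzd4 stood at 91.6, 62.4 and 84.5 CPM in untreated and 29.6 and 27.2 CPM in dilated libraries, without overlap, but was not called (log2 fold change -1.35, SE 0.41, adjusted p = 0.064).

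Fzd7 rose from a low level in dilator muscle. It stood at 6.86, 6.90 and 5.38 CPM in untreated, 8.90, 12.9 and 7.11 CPM in constricted and 12.9 and 9.82 CPM in dilated libraries. Dilated and constricted libraries overlapped, dilated and untreated ones did not (log2 fold change 1.03, SE 0.29, edgeR adjusted p = 0.032). The call was lost without dilated 1, dilated 2, untreated 2 or untreated 3, with adjusted p of 0.19, 0.077, 0.080 and 0.15. The co-receptor Lrp6 stood at 150, 138 and 147 CPM in untreated, 120, 137 and 119 CPM in constricted and 94.3 and 73.3 CPM in dilated libraries (log2 fold change -0.61, SE 0.14, adjusted p = 0.013). It only just passed the fold threshold, and was not called without dilated 2, untreated 2 or untreated 3 (adjusted p of 0.13, 0.053 and 0.064). With a block for replicate number the call was lost too, since the log2 fold change was -0.5996.

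**Figure D3:**
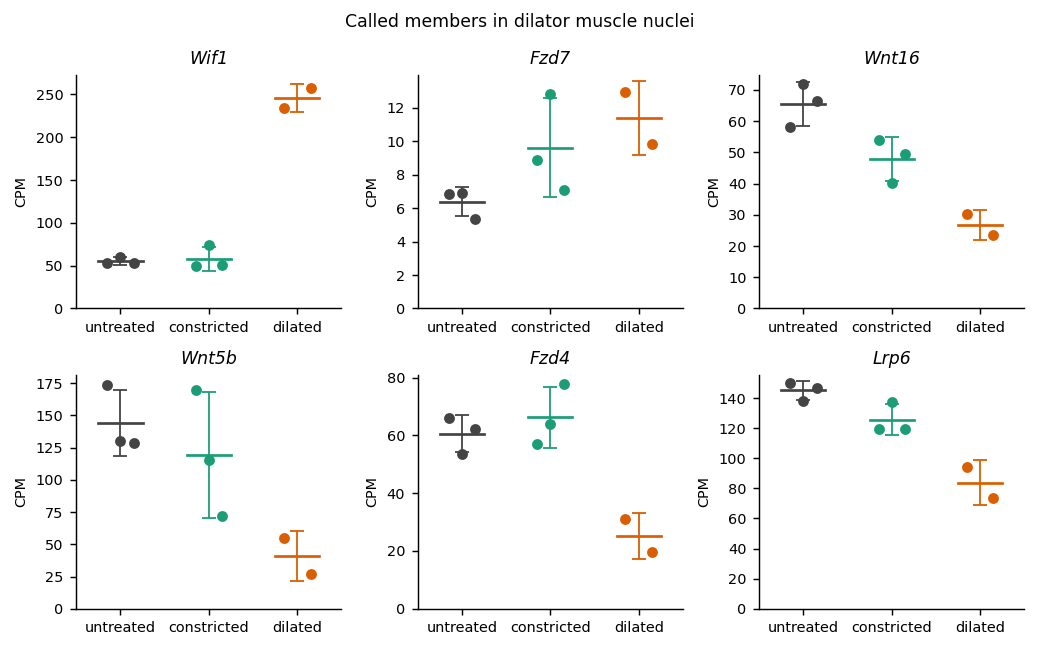
Levels (CPM) of the 6 members called in dilator muscle, with 1 point per library, lines for group means and bars for 1 SD (n = 3, 3 and 2 libraries). Wif1 reaches 234 and 257 CPM in the dilated libraries against at most 74.0 CPM in the others, and Wnt16, Wnt5b, Fzd4 and Lrp6 are lowest in both dilated libraries.

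The other members tested in dilator muscle were not called in the main fit. With the series block Fzd5 (log2 fold change 2.26, SE 0.66, edgeR adjusted p = 0.025) and Fzd2 (-0.87, SE 0.28, adjusted p = 0.039) were also called there. Their log2 fold changes in the main fit were 1.95 and -0.84, and Fzd5 had 173 UMIs over all cell types and libraries. Lgr4 had a log2 fold change of -0.49 (SE 0.14, edgeR adjusted p = 0.033), under the fold threshold. Rspo2 stood at 549 and 540 CPM in dilated against 490 to 522 CPM in untreated libraries (log2 fold change 0.29, SE 0.14, adjusted p = 0.19), and Axin2 at 105 and 97.0 CPM against 115 to 132 CPM (log2 fold change -0.11, SE 0.13, adjusted p = 0.65). Neither was called. The median log2 fold change over the 33 members was -0.11 against 0.02 over all genes tested, and the median absolute change was 0.32 against 0.33. The ratio of TMM-scaled to raw library size was on average 0.19 lower (log2) in dilated than in untreated dilator libraries. A gene unchanged after this scaling thus stood lower by that amount in CPM, and the fold changes are relative to the scaling. The summed level of 3 genes listed as melanocyte markers (Pmel, Mlana and Tyr) in dilator nuclei moved as well, from 2336 to 2669 CPM in untreated to 1064 to 1067 CPM in dilated libraries. All 3 were lower in both dilated libraries, with Tyr at 1170 to 1284 CPM in untreated and 299 and 253 CPM in dilated ones. Mlana was highest in untreated iris PE (414 CPM) and next in dilator muscle (366 CPM), so the list is not particular to melanocytes here. Of the stroma 1 markers, Dct stood at 5031 to 5591 CPM in untreated and 7463 and 7952 CPM in dilated libraries, higher in the dilated ones. The other markers of that list were lower there, Mitf at 1002 to 1086 CPM in untreated and 779.6 and 651 CPM in dilated libraries, and Sox10 at 3.52 to 4.36 CPM and 1.58 and 1.80 CPM. Their part in these results was not tested.

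**Figure D4:**
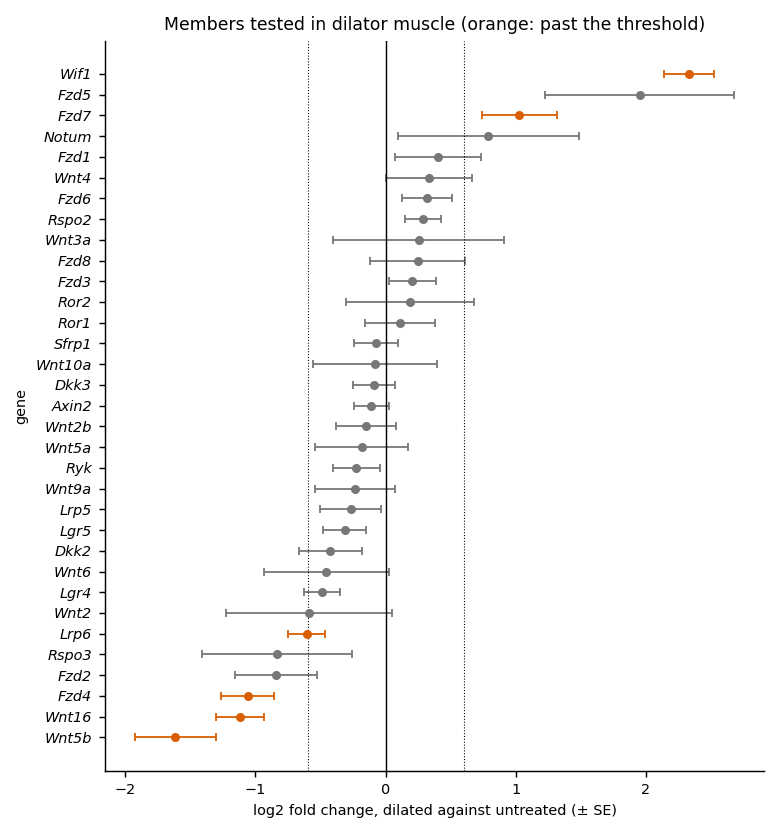
Log2 fold change between dilated and untreated dilator nuclei (horizontal axis, with SE) for the 33 members tested, sorted by size. Orange points passed both thresholds, and dotted lines mark the fold threshold of 0.6 on either side of 0. Wif1 stands at 2.33 and Wnt5b at -1.62, while most members lie between the dotted lines.

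In iris PE 1 receptor and 1 agonist rose. Fzd1 stood at 13.4, 12.9 and 11.5 CPM in untreated, 17.1, 23.0 and 26.6 CPM in constricted and 28.1 and 28.8 CPM in dilated libraries. The 3 groups did not overlap, with the constricted libraries between the others (log2 fold change with dilation 1.22, SE 0.23, edgeR adjusted p = 0.032). Rspo3 was rare, at 0.836, 1.59 and 1.07 CPM in untreated (15 UMIs), 0.986, 1.64 and 2.62 CPM in constricted and 6.58 and 8.22 CPM in dilated libraries (62 UMIs), with a log2 fold change of 2.54 (SE 0.49, adjusted p = 0.036). A Rspo3 UMI was found in 0.403% of untreated and 1.90% of dilated iris PE nuclei (0.217% and 0.629% thinned). Both calls were lost when single libraries were left out, and without constricted 2, dilated 1, dilated 2, untreated 2 or untreated 3 in turn the adjusted p was 0.057, 0.13, 0.20, 0.16 and 0.22 for Fzd1, and 0.062, 0.16, 0.27, 0.16 and 0.26 for Rspo3. DESeq2 called Fzd1 but gave no adjusted p for Rspo3.

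In sphincter 2 the inhibitor Dkk2 fell. It stood at 825, 337 and 440.3 CPM in untreated, 256, 296 and 245 CPM in constricted and 107 and 92.0 CPM in dilated libraries. The dilated libraries were below all others, although the untreated ones spread widely (log2 fold change -2.22, SE 0.30, edgeR adjusted p = 1.74e-05), and the fall was 4.67-fold. It rests on few nuclei, with 56 Dkk2 UMIs in 157 dilated nuclei against 549 UMIs in 352 untreated nuclei. A Dkk2 UMI was found in 39.2% of untreated and 15.3% of dilated sphincter 2 nuclei (19.9% and 7.01% thinned), against 2.82% of untreated and 3.62% of dilated iris PE nuclei. In stroma 2, its main site, Dkk2 stood at 1876 and 1745 CPM in dilated against 1164 to 1382 CPM in untreated libraries (log2 fold change 0.55, SE 0.19, adjusted p = 0.24, not called). The difference between the effects in sphincter 2 and stroma 2, a pair chosen after the values were seen, was -2.70 on the log2 scale (SE 0.30, adjusted p = 1.41e-08).

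Markers of other types were read in the same nuclei. Of the stroma 2 markers, Tfap2b stood at 0.0, 16.6 and 25.2 CPM in untreated and 14.8 and 17.03 CPM in dilated libraries, and Pdgfra at 9.16, 4.16 and 17.8 CPM and 11.1 and 37.5 CPM, so that the groups overlapped for both. The summed level of the 3 endothelial markers in sphincter 2 nuclei was 10.4 to 45.8 CPM in untreated and 3.41 to 22.2 CPM in dilated libraries. The sum was highest in untreated 1, the library with the highest Dkk2, where 26 sphincter 2 nuclei held 109148 UMIs. The endothelial sums and the levels of both stroma 2 markers rest on few UMIs. The summed level of the 3 sphincter 1 markers was lower in the dilated libraries without overlap, at 1707 to 1982 CPM against 2382 to 3216 CPM. Their part in the fall was not tested. Without untreated 1 or any other library Dkk2 stayed called (log2 fold changes from -2.50 to -1.91 over all alternatives).

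**Figure D5:**
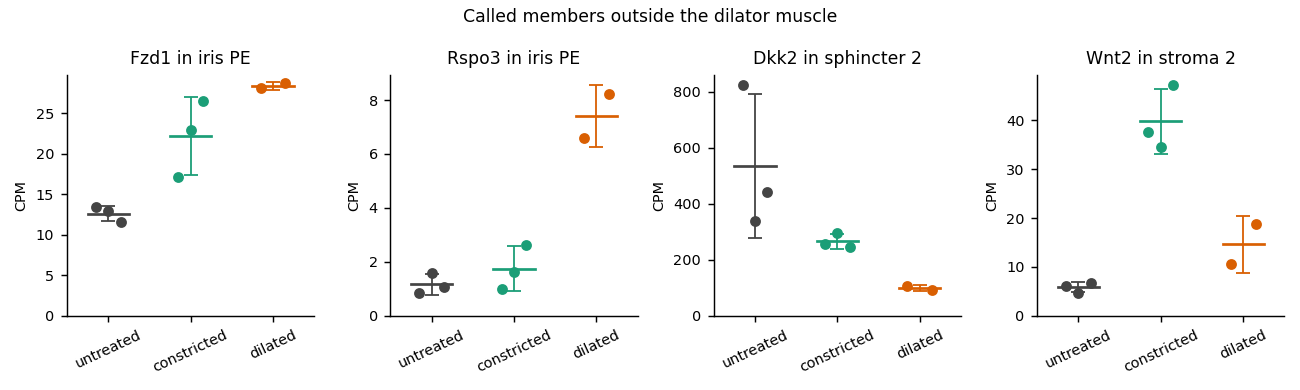
Levels (CPM) of the members called outside the dilator muscle, with 1 point per library, lines for group means and bars for 1 SD (n = 3, 3 and 2 libraries). Dkk2 in sphincter 2 falls from a mean of 534 CPM in untreated to 99.7 CPM in dilated libraries, and Wnt2 in stroma 2 is highest in the 3 constricted libraries.

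No member was called with dilation in the other 7 types by the main edgeR fit. Its unadjusted p was under 0.05 for 10 members in stroma 2, 3 in CBE, 2 in sphincter 1, 0 in leukocytes and 1 in each of the others. DESeq2 called 1, Fzd3 in stroma 2, and gave no adjusted p for 8 members in sphincter 1 and 3 in stroma 1. No share of all genes was taken at the unadjusted cut, so the member counts under it are not read as particular to the members. At both thresholds of a call, the share of all genes was 1.95% in sphincter 1, 0.0122% in CBE, 0.0665% in CB, 1.17% in stroma 1, 1.73% in stroma 2, 1.32% in leukocytes and 0.0% in endothelial cells. Stroma 2 had the highest untreated level of Wnt4, Wnt5a, Wnt6, Wnt10a and Wnt11. There 34 members were tested, with a median log2 fold change of -0.11 against 0.01 over all genes. Of these ligands, Wnt6 stood at 201, 196 and 212 CPM in untreated and 119 and 200 CPM in dilated stroma 2 libraries, and Wnt5a at 195 to 270 CPM and 210 and 213 CPM. The groups overlapped for Wnt5a and for Wnt6. Fzd3 there had a log2 fold change of 1.03 (SE 0.27, edgeR adjusted p = 0.089, called with the series block at an adjusted p of 0.0022) and Rspo2 of -0.69 (SE 0.28, adjusted p = 0.33). Without the low-count filter, edgeR called Rspo2 (adjusted p = 0.019), Fzd1, Fzd3, Wnt2 and Sfrp4 in stroma 2. The replicate block called Fzd3 and Wnt2 there, and the series block Fzd1, Fzd3 and Wnt2. With the series block Axin2 was also called in stroma 1, and Ror1 and Dkk3 in sphincter 1.

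The dilation effect itself was compared between dilator muscle and its neighbour layers. Against iris PE, 9 of 36 members differed, compared with 12.2% of all genes tested, and against stroma 2, 7 of 38 compared with 8.13%. Wnt5b, Lrp6 and Dkk2 were in both sets, each with the lower effect in dilator muscle. For Wnt5b the effect was lower by 1.48 than in iris PE and by 1.25 than in stroma 2 (SE 0.16 and 0.20, edgeR adjusted p = 5.81e-07 and 0.00082). Dilator muscle was not compared with sphincter 2, where Wnt5b was not called in the main fit. It was called lower in sphincter 2 with the series block (log2 fold change -1.22, SE 0.32, edgeR adjusted p = 0.018). With the replicate block it was called there too (-1.25, SE 0.36, adjusted p = 0.039). For Fzd4 the effect differed from that in stroma 2, where its log2 fold change was 0.68, by -1.74 (SE 0.31, adjusted p = 0.0018), but not detectably from that in iris PE (difference -0.47, SE 0.20, adjusted p = 0.14).

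The second comparison asked which members differed between constricted and untreated irises. A single member was called, Wnt2 in stroma 2, 1 of 34 tested there against 0.0156% of all genes. Wnt2, a ligand of the beta-catenin pathway in other organs, stood at 6.04, 4.69 and 6.79 CPM in untreated (44 UMIs), 37.6, 34.4 and 47.2 CPM in constricted (171 UMIs) and 10.5 and 18.7 CPM in dilated libraries. All 3 constricted libraries were above all others (log2 fold change 2.76, SE 0.31, edgeR adjusted p = 0.012), a 6.79-fold rise. A Wnt2 UMI was found in 1.32% of untreated and 7.85% of constricted stroma 2 nuclei (0.616% and 3.47% thinned), against 0.376% and 1.16% of iris PE nuclei (0.0815% and 0.588% thinned). The call was lost without constricted 2, untreated 2 or untreated 3, with adjusted p of 0.0504, 0.22 and 0.11 and log2 fold changes of 2.84, 2.60 and 2.96. In the dilated libraries Wnt2 in stroma 2 was not called (log2 fold change 1.28, SE 0.35, adjusted p = 0.11), but it was with the series block (1.48, adjusted p = 0.023).

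Outside stroma 2 the main edgeR fit and DESeq2 called no member with constriction, although DESeq2 gave no adjusted p for 17 members in CBE and 14 in sphincter 1. Over all types the unadjusted edgeR p was under 0.05 in 22 of 186 tests of members, a count given without the share of all genes at that cut. The share of all genes called was 0.0065% in dilator muscle, 0.0897% in sphincter 2, 0.00708% in iris PE and 0.0% in the remaining types. Dkk2 in sphincter 2 stood at 256, 296 and 245 CPM in constricted libraries, below the lowest untreated value of 337 CPM (log2 fold change -0.88, SE 0.24, edgeR adjusted p = 0.20, not called). With the series block it was called (-1.05, adjusted p = 0.042), as it was by edgeR with the replicate block (adjusted p = 0.047). Without the low-count filter edgeR called Dkk2 in sphincter 2 (adjusted p = 0.029) and Wnt5b in endothelial cells (-2.68, adjusted p = 0.014). Wif1 in dilator muscle overlapped between constricted and untreated libraries.

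The wider pathway was read from lists of Wnt pathway genes, which were chosen with earlier results of these data known. Members were not removed from the numbers tested, and the common targets included at least the member Lgr5. Their counts in dilator muscle are to be read against the 13.3% of all genes called there (7.2% higher and 6.14% lower). In dilator muscle 1 of 21 transducers tested fell with dilation (Bcl9, a beta-catenin cofactor, log2 fold change -0.77, SE 0.15, edgeR adjusted p = 0.0042) and 0 rose. Of 11 genes for receptor turnover and surface inhibition 2 fell, Sostdc1 (-2.03, SE 0.55, adjusted p = 0.027) and Lrp4 (-1.24, SE 0.17, adjusted p = 0.00047). Of 13 common targets 2 fell, Nkd1 (-1.45, SE 0.16, adjusted p = 0.00013) and Tnfrsf19 (-1.13, SE 0.17, adjusted p = 0.00080), and 1 rose, Myc (4.61, SE 0.80, adjusted p = 0.0022), which stood at 3.26 and 3.81 CPM in dilated and at most 0.623 CPM in all other libraries. Nkd1, a feedback inhibitor, stood at 101, 114 and 123 CPM in untreated and 36.9 and 36.1 CPM in dilated dilator nuclei, without overlap.

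The remaining lists also had calls in dilator muscle, again against 13.3% of all genes. Of 8 genes for ligand processing and release, Sulf2, a sulfatase that trims heparan sulfate, rose (1.07, SE 0.19, edgeR adjusted p = 0.0023). Sulf2 stood at 18.1, 22.7 and 21.5 CPM in untreated, 35.8, 35.5 and 34.8 CPM in constricted and 35.8 and 43.1 CPM in dilated libraries. Its level was thus also higher in constricted than in untreated libraries, without overlap. Of the same 8 genes Trabd2b, a protease that cleaves Wnt ligands, fell with dilation (-0.81, SE 0.23, edgeR adjusted p = 0.034). Of 16 planar polarity genes, Dact1 rose (2.29, SE 0.35, adjusted p = 0.0010) and Fuz fell (-1.10, SE 0.32, adjusted p = 0.039). Of 4 norrin and vascular co-receptor genes Adgra3 fell (-0.65, SE 0.18, adjusted p = 0.031). Trabd2b and Nkd1 were also lower in dilated sphincter 2 nuclei (-1.99, SE 0.51, adjusted p = 0.026, and -0.93, SE 0.24, adjusted p = 0.028), and Sulf1 was higher there (0.98, SE 0.26, adjusted p = 0.034) but lower in sphincter 1 (-1.33, SE 0.28, adjusted p = 0.013).

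In the stromas, Prickle2, a planar polarity gene, rose in stroma 1 (1.13, SE 0.15, edgeR adjusted p = 0.00065), where it stood at 278, 256 and 241 CPM in untreated and 582 and 530.2 CPM in dilated libraries. In stroma 2, Lrp4 fell (-0.97, SE 0.16, adjusted p = 0.014), Apc, part of the beta-catenin destruction complex, fell (-0.78, SE 0.18, adjusted p = 0.0496), and Nkd2, a relative of Nkd1, rose (0.95, SE 0.19, adjusted p = 0.028). Apc stood at 383, 454 and 486 CPM in untreated, 335, 326 and 274 CPM in constricted and 274 and 225 CPM in dilated stroma 2 libraries. Its level was thus also lower in constricted than in untreated libraries, without overlap. With constriction no gene of these lists was called in any type.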

How the data were processed

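Irises for 8 libraries were processed in 5 batches, and the libraries were sequenced in 2 runs. The authors aligned reads to mm10, exons and introns, with Cell Ranger 3.1.0 and deposited raw UMI counts per gene and nucleus. The authors removed nuclei above 1 percent mitochondrial transcripts, or outside 500 to 6000 transcripts, and deposited that percentage with Seurat cell type names. The deposited nuclei held 500 to 5956 genes and 633 to 20494 UMIs, so these limits match genes rather than UMIs. No per-sample column was left unused (0).

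Members and lists were chosen with earlier results of these data known. For every cell type, UMIs of its nuclei were added up within each library and tested with edgeR 4.0.16 (quasi-likelihood, two-sided, TMM scaling, low-count filter, R 4.3.3), with SE derived from F. Differences between types were tested in joint fits with a term per library and called at an adjusted p under 0.05. The fit per cell type, but not the joint fits, was also run on simulated counts with means and spreads taken from these data. Doublets found with scanpy 1.11.5 (341 nuclei, 0.993%) were kept. Replicates are pools of irises, so p-values measure the spread between pools. Depth was 5189437 to 25136427 UMIs per library. All 48 members matched GENCODE (GRCm38).

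Named members were those called in any type, those at least 2-fold above the next type with at least 30 UMIs, and the member with most UMIs in each role. Ror2, Lgr4, Lgr5, Sfrp1, Notum, Fzd3 and Fzd5 were added after their values were seen. Alternatives were DESeq2 1.42.0 (limma 3.58.1 for differences between types), RLE scaling, no low-count filter, a block for replicate number or library series, each library left out, and doublets or shared barcodes left out, the last chosen after seeing the data. The summed level of the stroma 2 markers is not reported here.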

Additional observations from a re-analysis of the deposited data

Results flagged for a closer look

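The dilation effect, as a log2 fold change, differed between dilator muscle and iris PE for 9 members (edgeR test of the interaction). The difference, dilator muscle minus iris PE, was -1.48 for the ligand Wnt5b, -0.57 for Wnt16, -0.69 for the co-receptor Lrp6, -3.46 for Rspo3, -0.52 for the R-spondin receptor Lgr4, -0.52 for Dkk3, -0.81 for Dkk2 and -0.87 for Fzd1. It was 1.46 for Fzd7. The value for Rspo3 rests on 37 UMIs in untreated dilator nuclei and 15 in untreated iris PE nuclei.

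Between dilator muscle and stroma 2 the effect differed for 7 members. The difference, dilator muscle minus stroma 2, was -1.25 for Wnt5b, -0.96 for Lrp6, -1.74 for Fzd4, -0.98 for Dkk2 and -0.74 for Fzd3. It was 1.00 (0.9957) for Rspo2 and 1.09 for Wnt4. No group held enough libraries for a test of single outlying libraries.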

How the results depend on the processing

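Of 149 refits of the 10 called fold changes, 128 kept the call, 21 lost it and 0 turned the direction (Rspo3 has no DESeq2 refit among them, for want of an adjusted p). Wif1, Wnt16, Wnt5b and Fzd4 in dilator muscle and Dkk2 in sphincter 2 stayed called in all refits run. Counts of calls here are over cell types, so a member called in more than 1 type is counted in each. The count of 9 with dilation became 18 with a block for library series, 14 without the low-count filter and 9 with DESeq2 (8 of them shared). Over all genes, the 2840 calls became 5335, 4011 and 2755 in the same settings. The member count ranged from 5 to 10 when single untreated or constricted libraries were left out (5 without untreated 2 or untreated 3). Without untreated 2 or untreated 3 the calls over all genes fell as well, from 2840 to 1408 and 1373. The count of 1 with constriction became 2 with the series block and 3 without the filter. Over all genes, the 10 calls with constriction became 87 and 299. The member count with constriction ranged from 0 to 1 over single untreated or constricted libraries left out. Effects that differed between dilator muscle and iris PE ranged from 7 to 10 members, and those against stroma 2 from 3 to 7 (4 without dilated 2 or untreated 2, and 3 without untreated 3). The cause of these shifts was not tested. Of 71 recomputed ratios between cell types, 51 moved by less than 1 SD, 20 moved further and 0 reversed. Over all 8 libraries the log2 ratio was 2.01 rather than 3.1003 for Wif1 and 4.38 rather than 3.05 for Rspo1, and from pooled UMIs 3.01 rather than 1.86 for Wnt11.

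Over 21 pairs with the same replicate number the correlation of deviations ran from -0.033 to 0.45 (mean 0.18). Over 42 pairs with different numbers it ran from -0.45 to 0.45 (mean -0.089). Same-number pairs of different series, all with constricted 2, ran from -0.033 to -0.0061. All other same-number pairs shared a series, so number and series cannot be told apart in them. With the replicate block there were 11 calls of members over the cell types with dilation (8 shared, Wnt5b in more than 1 type) and 2 with constriction. Over all genes there were 3681 calls with dilation and 76 with constriction. The Lrp6 call was lost under this block, with a log2 fold change of -0.5996 and an edgeR adjusted p of 0.014. Libraries of the same series did deviate together, at 0.13 to 0.45 over 24 pairs, which are not independent of one another. The joint fits already held a term per library. In simulated data with 100 genes changed 2-fold and 100 changed 4-fold, the main test recovered 45% of 2-fold changes in dilator muscle and 29% in sphincter 2. Of the 4-fold changes it recovered 83% and 77%. It also called 18 unchanged genes in dilator muscle and 4 in sphincter 2. Some calls may thus be false, and smaller changes in rare types may go undetected. The simulated libraries were drawn independently, without the shared deviations of a series, so these rates may not hold for the real libraries.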
